A study of Mus musculus with 2 samples.

Results

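The genes described here were those with several RefSeq transcripts in the control (Rcor2fl/fl) library of the E13.5 mouse cortex, and the quantity followed was the share of each transcript in the summed level of its gene. Members were chosen by their measured values: a gene had to be listed with 2 or more transcripts, every transcript had to carry the status OK, and the summed FPKM (fragments scaled to transcript length and to the mapped total of the library) had to be at least 5. Of 21896 gene symbols, 3626 had 2 or more transcripts, 3536 of these had the status OK throughout, and 1903 reached the minimum. These 1903 genes were listed with 4979 transcripts and held 18.4% of the summed FPKM of the library.

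The tissue was the VZ–SVZ of the cortex, the germinal layers beside the ventricle, taken from embryos of strain C57/BL6 and sequenced as 1 Rcor2fl/fl library and 1 Rcor2cko library. Embryos came from crosses of Rcor2fl/+NesCre mice, in which Cre recombinase is driven by Nestin regulatory sequence and acts in the neural lineage. Rcor2fl/fl embryos carry LoxP sites around the first exons of Rcor2 on both alleles, their genotype label names no Cre, and in Rcor2cko these exons are deleted. How many embryos were pooled is not given in the sources used here. The Rcor2cko values are given per gene and cannot show transcripts, so that every transcript value is from the single Rcor2fl/fl library, with no replicate check and no test. Rcor2 itself was listed with 1 transcript in the control, its level being 90.6 FPKM there and 55.7 FPKM in Rcor2cko. These values are for the whole gene and do not separate the deleted exons from the others. The study reported that RNA from the exons between the LoxP sites was absent in Rcor2cko, which is a different measure.

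Most mammalian genes produce several transcripts, by starting at different promoters, by including or skipping cassette exons, and by ending at different sites. The nervous system is known for extensive use of these choices, and switches of exons accompany the step from dividing progenitor to neuron. Polypyrimidine tract-binding protein, encoded by Ptbp1 and abundant in progenitors, represses neuronal exons, whereas proteins of the Rbfox, Nova, Celf, Elavl and nSR100 (Srrm4) families act on exons in neurons. A library of bulk tissue adds up all cells, so that a gene with balanced transcripts may hold both in each cell or different ones in different cells, and these cases cannot be told apart here.

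Markers of cortical progenitors were present, and so were markers of postmitotic neurons, which are not cells of the germinal layers named for this tissue. The median was 47.9 FPKM for radial glia markers, 47.2 FPKM for intermediate progenitor markers and 162 FPKM for neuron markers. Levels of different genes do not give the shares of these cells. All 10 radial glia markers were at 11.9 to 308 FPKM, all 5 markers of intermediate progenitors at 6.35 to 84.3 FPKM, and all 7 markers of postmitotic neurons at 71.5 to 568 FPKM, so that the transcripts of both progenitors and neurons were in the library. The 6 microglia markers reached at most 2.67 FPKM and the 6 choroid plexus markers at most 0.243 FPKM, 2 of them, Ttr and Kl, being listed at 0. Of 5 endothelial markers 1 was above 5 FPKM (Cldn5, 12.4 FPKM), and among 7 erythroid markers adult beta-globin Hbb-b1 reached 153 FPKM. The low FPKM values of genes with 1 transcript fall on steps of whole fragments, which gave a scaling total of 18841070 fragments. Of 4019 values of up to 100 fragments, 99.3% lay within 0.1 of a whole number. At this depth a gene at the minimum of 5 FPKM with a transcript of 2000 nt rests on about 170 fragments, and 3 fragments correspond to 0.0882 FPKM. The fragments of a single transcript within a gene cannot be recovered in this way, and the 95% FPKM intervals given with each transcript were used instead. They cover the error that the authors' software models within 1 library.

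The exons below are known alternative exons of genes with roles in neurons, neural progenitors or RNA processing, and are shown because the shares of their transcripts range widely here. Each belongs to a gene in which the leading transcript and another transcript from the same start site differ in length by exactly the length of the only cassette exon of that size in the GENCODE vM1 annotation of mm9. All are coding exons in that annotation. The assignment rests on length alone. Capitals mark the exon, and the 10 bases of intron on each side are in lower case, 5′ to 3′ on the strand of the gene, read from the mm9 genome.
Src exon of 18 nt, chr2:157284579-157284596, plus strand: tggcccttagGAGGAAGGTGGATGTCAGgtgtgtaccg
Mtap2 exon of 93 nt, chr1:66478101-66478193, plus strand: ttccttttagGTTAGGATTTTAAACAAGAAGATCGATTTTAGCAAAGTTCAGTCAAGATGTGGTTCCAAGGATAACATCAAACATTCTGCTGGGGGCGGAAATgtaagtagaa
Clta exon of 54 nt, chr4:44043087-44043140, plus strand: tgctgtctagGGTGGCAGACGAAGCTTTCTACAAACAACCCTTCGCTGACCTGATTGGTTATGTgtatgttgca
Clta exon of 36 nt, chr4:44044272-44044307, plus strand: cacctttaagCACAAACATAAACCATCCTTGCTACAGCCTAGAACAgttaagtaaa
Cadm1 exon of 84 nt, chr9:47626817-47626900, plus strand: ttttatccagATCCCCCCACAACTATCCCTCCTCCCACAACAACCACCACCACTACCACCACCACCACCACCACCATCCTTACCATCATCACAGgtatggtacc
Cadm1 exon of 33 nt, chr9:47637460-47637492, plus strand: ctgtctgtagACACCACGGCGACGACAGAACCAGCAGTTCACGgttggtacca
Numb exon of 147 nt, chr12:85138147-85138293, minus strand: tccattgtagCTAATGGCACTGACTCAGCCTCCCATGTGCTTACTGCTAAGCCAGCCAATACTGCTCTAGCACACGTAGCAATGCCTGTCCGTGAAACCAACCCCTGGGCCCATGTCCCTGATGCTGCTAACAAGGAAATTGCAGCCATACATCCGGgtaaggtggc
Ptbp1 exon of 78 nt, chr10:79322862-79322939, plus strand: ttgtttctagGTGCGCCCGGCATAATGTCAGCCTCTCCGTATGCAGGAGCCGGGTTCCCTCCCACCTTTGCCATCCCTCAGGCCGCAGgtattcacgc
Hnrnpd exon of 57 nt, chr5:100405553-100405609, minus strand: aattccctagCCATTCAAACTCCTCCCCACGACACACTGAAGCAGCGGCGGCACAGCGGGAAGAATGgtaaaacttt
Hnrnpd exon of 147 nt, chr5:100392750-100392896, minus strand: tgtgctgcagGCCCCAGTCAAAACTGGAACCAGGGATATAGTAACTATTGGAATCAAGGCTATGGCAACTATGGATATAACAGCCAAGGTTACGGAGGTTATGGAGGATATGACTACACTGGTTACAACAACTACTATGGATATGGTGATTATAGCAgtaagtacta
Sox5 exon of 147 nt, chr6:143855907-143856053, minus strand: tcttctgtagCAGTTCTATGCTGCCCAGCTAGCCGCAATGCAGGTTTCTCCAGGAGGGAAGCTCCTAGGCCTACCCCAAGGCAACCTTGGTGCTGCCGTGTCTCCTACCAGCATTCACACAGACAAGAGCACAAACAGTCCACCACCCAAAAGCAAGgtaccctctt

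The exon of 18 nt in Src is the N1 microexon, known from neurons, which lengthens a loop of the SH3 domain of this tyrosine kinase. The transcript of Src with these 18 nt was at 19.0 FPKM (95% FPKM interval 16.1 to 21.8) and the transcript without them at 6.36 FPKM (4.65 to 8.07). The longer transcript thus held 74.9% of Src, and the intervals did not overlap. Mtap2, the gene of the dendritic protein MAP2, stood at the other end. Its exon of 93 nt encodes an additional microtubule-binding repeat, and the transcript with it held 3.50% of the gene, at 5.68 FPKM with an interval from 0 to 26.8, against 157 FPKM (123 to 191) for the shorter transcript. Clta encodes clathrin light chain a, whose inserts of 54 and 36 nt are known from brain. The transcript with the 54-nt exon alone was at 63.3 FPKM (52.5 to 74.1) and held 55.7% of Clta, the transcript without either exon was at 42.9 FPKM (32.2 to 53.5) with 37.7%, and the transcript with both was at 2.01 FPKM (0 to 4.09) with 1.77%. The intervals of the first pair overlapped, so that the order of the 54-nt form and the short form was not resolved.

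Cadm1, an adhesion molecule of the immunoglobulin superfamily, has both an 84-nt and a 33-nt cassette exon, and its 4 transcripts are the 4 combinations of them. The transcript with both exons led at 19.7 FPKM (16.6 to 22.7) and 65.3%. Loss of the 84-nt exon alone gave 8.79 FPKM, loss of the 33-nt exon alone 1.37 FPKM, and loss of both 0.314 FPKM. The 84-nt exon, which encodes part of the stalk of the protein, was therefore the more variable of the pair. Numb, a regulator of Notch signalling and of asymmetric division, was close to the minimum of 5 FPKM. The transcript without the 147-nt exon, which encodes part of the proline-rich region, was at 3.85 FPKM (2.52 to 5.18), and the transcript with it at 2.17 FPKM (1.18 to 3.17), so that their intervals overlapped. Sox5, a transcription factor of deep-layer neurons, used its 147-nt exon in 79.3% of its FPKM, at 52.0 FPKM (44.9 to 59.2) against 13.6 FPKM (9.73 to 17.5).

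Across all 1903 genes, the leading transcript held a median of 77.4% of the summed FPKM, with quartiles of 61.2 and 91.5%. A gene was called led when its leading transcript held at least 80%, which was so for 875 genes (46%), and balanced when it held under 60%, which was so for 447 genes (23.5%). The other 581 genes (30.5%) lay in between. The leading transcript is the highest of its gene whatever its share. In 952 genes (50%) at least 2 transcripts held 20% or more each, and in 68 genes at least 3 did. The median effective number of transcripts, the exponential of the entropy of the shares, was 1.74. In 350 genes (18.4%) the leading transcript held at least 95%, and in 169 at least 99%.

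**Figure D1:**
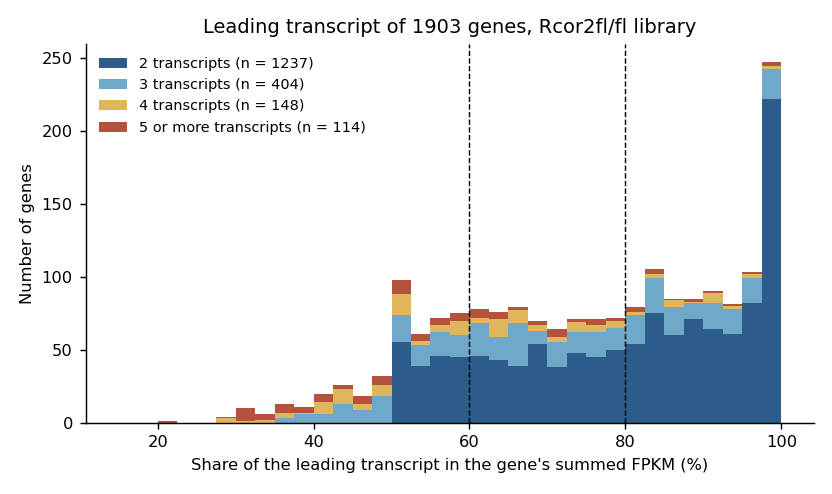
Distribution of the share of the leading transcript (x axis, % of summed FPKM) over 1903 genes (y axis, number of genes), stacked by the number of RefSeq transcripts, with dashed lines at 60 and 80%. Genes with 2 transcripts cannot fall below 50% and make up most of the peak near 100%, and genes with 5 or more lie mostly under 60%.

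Dominance fell with the number of listed transcripts, as the arithmetic of shares favours. Among the 1237 genes with 2 transcripts the median leading share was 83.2%, and 689 genes (55.7%) were led. The median was 70.9% for 404 genes with 3 transcripts, 60.4% for 148 genes with 4 and 53.7% for 114 genes with 5 or more, of which 15 (13.2%) were led. The count differed less between levels of the gene. From 5 to under 10 FPKM 240 of 486 genes (49.4%) were led, and at 50 FPKM and more 104 of 237 (43.9%).

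The leading transcript was set apart from every other transcript of its gene by the 95% FPKM intervals in 1469 genes (77.2%). All 875 led genes were resolved in this sense, but only 77 of the 447 balanced genes (17.2%) were. Resolution was 71.6% between 5 and 10 FPKM and 78.5% at 50 FPKM and more. For most balanced genes, then, the library does not show which transcript is the highest. Overlap of the intervals does not show that levels are equal. Of the 4979 transcripts, 420 (8.44%), in 337 genes, were listed at 0. All 420 also have an upper bound of 0, so that no limit on their level is given.

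Start sites, identified in the deposited values by an identifier without a position, gave a similar picture. In 1087 genes all transcripts shared 1 start site, with a median leading share of 77.99%, and in 816 genes they used several, with a median of 76.3%. When transcripts were summed by start site, the leading site held at least 80% in 452 of the 816 genes (55.4%) and under 60% in 146 (17.9%). Ctnnb1, which encodes beta-catenin, was divided over 2 start sites at 196 FPKM (138 to 254) and 170 FPKM (117 to 224).

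Both longer and shorter transcripts led. The leading transcript was the longest of its gene in 888 of 1895 genes whose transcripts differ in length (46.9%) and the shortest in 739 (39%). Of 1229 genes with 2 transcripts of unequal length, the longer led in 678 (55.2%). Among the 794 of these in which both transcripts share a start site, the length difference had a median of 102 nt, was a multiple of 3 in 480 (60.5%), and was at most 27 nt in 149 (18.8%) and over 1000 nt in 117 (14.7%).

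A length difference was matched to a cassette exon, by the same rule as for the exons printed above, in 522 pairs of transcripts from 474 genes. The exon was coding in 373 pairs, and its length was a multiple of 3, which keeps the reading frame, in 319 of them (85.5%), against 57 of 149 pairs (38.3%) with another exon. In 258 genes the highest and the second transcript differed by a matched coding exon. Of these exons 257 are flanked by the splice site dinucleotides AG and GT or GC in the mm9 genome. The longer transcript led in 157 of the 258 genes (60.9%). It held at least 80% of the pair in 81 genes, between 20 and 80% in 124 and under 20% in 53, and the intervals of the pair did not overlap in 218 genes (84.5%). The share of the longer transcript in its pair thus ranged widely. It leaves out any other transcripts of the gene and is not a measure of exon inclusion over the whole gene.

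**Figure D2:**
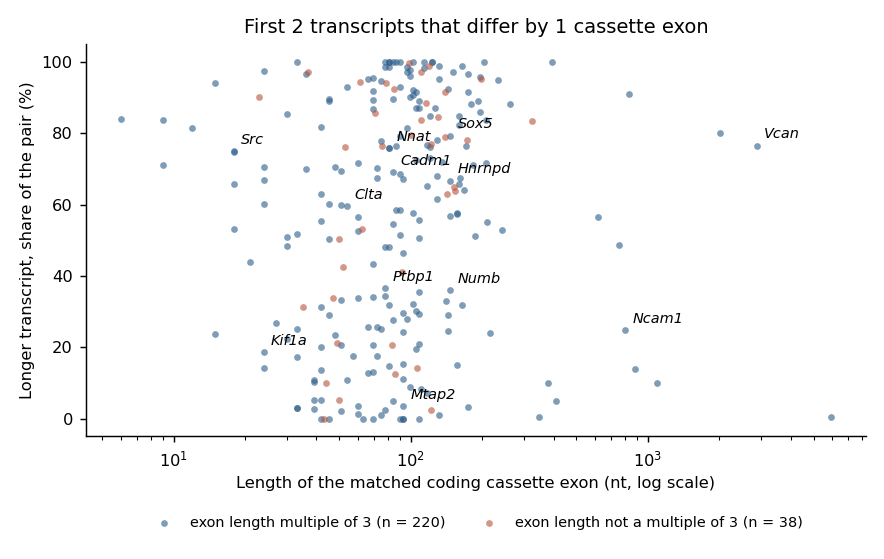
Share of the longer transcript in the summed FPKM of the pair (y axis, %) against the length of the matched coding cassette exon (x axis, nt, log scale) for 258 genes, coloured by whether the length is a multiple of 3. Shares run from under 20% in 53 genes, Mtap2 at 3.50% among them, to 80% or more in 81 genes, and 2 of the 19 exons of up to 27 nt lie under 20%.

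The matched exons were described by length and by sequence features read from the genome. The median length was 99 nt in the 157 genes with the longer transcript higher and 78 nt in the 101 with the shorter higher. The longer transcript was the higher in 14 of 19 genes (73.7%) with exons of at most 27 nt, the length of microexons, in 68 of 136 (50%) with 28 to 100 nt and in 75 of 103 (72.8%) with over 100 nt. The median GC content of the exon was 50.8 and 52.0%, and the median share of pyrimidines in the 20 bases before the acceptor site was 75% in both. Besides Src, the genes with microexons include Kif1a, Arrb1 and Eif4g1, chosen after their values were seen. Kif1a, an axonal kinesin, was at 12.03 FPKM for the transcript with a 24-nt exon and 52.3 FPKM for the one without it. In Arrb1, the gene of beta-arrestin 1, the transcript with a 24-nt exon held 97.5%. Eif4g1, a scaffold of translation initiation, was near balance for its 21-nt exon, at 35.1 and 44.9 FPKM with overlapping intervals.

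**Figure D3:**
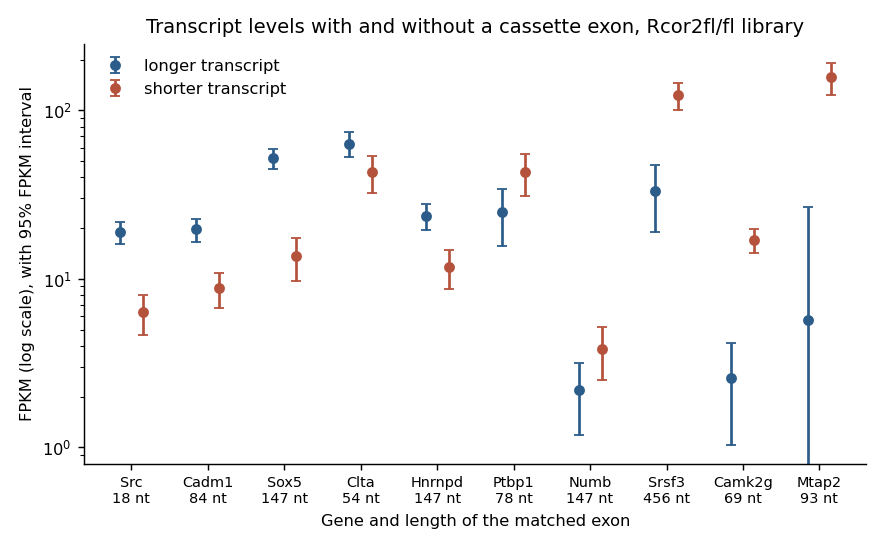
FPKM (y axis, log scale) of the transcript with (blue) and without (red) a matched exon for 10 genes, with the 95% FPKM interval from the deposited values as bars. The longer transcript was higher in Src, Cadm1, Sox5, Clta and Hnrnpd, the intervals of Clta, Ptbp1 and Numb overlap, and the lower bound of the longer Mtap2 transcript is 0 and lies off the axis.

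Known genes of neural isoforms were taken from 7 lists, which held 322 genes of the library. Of these, 156 were listed with a single transcript, so that their known isoforms cannot be seen. Pax6, Ptbp2, Cdc42, Pkm2, Snap25, Rac1, Kdm1a and Rcor2 are among them. The 145 genes that were members were led in 36 cases (24.8%, against 46% of all members) and balanced in 54 (37.2%, against 23.5%), and 97 (66.9%, against 50%) had at least 2 transcripts of 20%. These lists hold more transcripts per gene, 79 of the 145 genes (54.5%) having 3 or more against 666 of the 1903 (35%). The counts were therefore also made by number of transcripts. With 2 transcripts 27 of 66 list genes (40.9%) and 689 of all 1237 (55.7%) were led, and with 3 or more 9 of 79 (11.4%) and 186 of 666 (27.9%). Balanced genes differed little with 2 transcripts, 12 of 66 (18.2%) against 185 of 1237 (15%). With 3 or more they were 42 of 79 (53.2%) against 262 of 666 (39.3%).

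**Figure D4:**
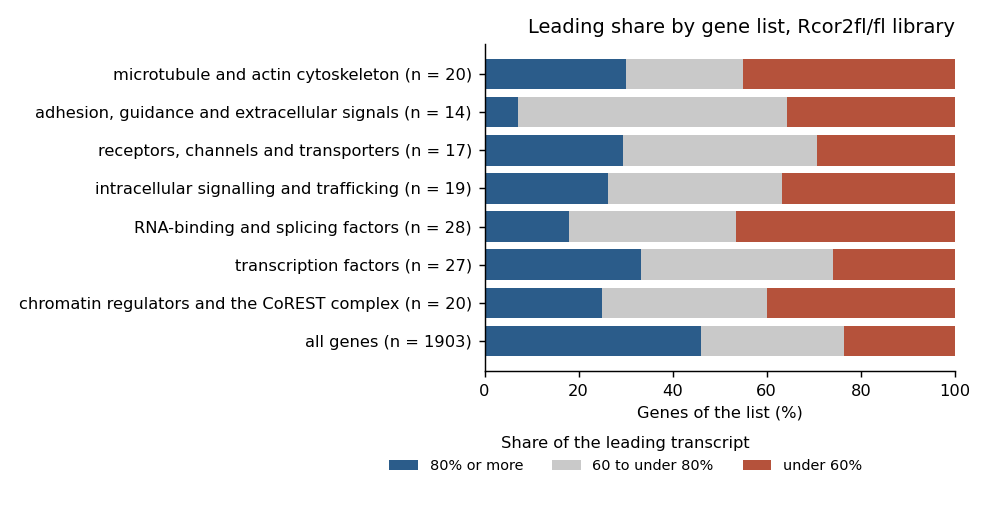
Percentage of genes (x axis) whose leading transcript held 80% or more (blue), 60 to under 80% (grey) or under 60% (red) of the summed FPKM, for 7 gene lists and for all 1903 genes. The blue bar is shorter in each list than in all genes, from 7.14% of 14 adhesion and guidance genes to 33.3% of 27 transcription factors.

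Of 20 genes of the microtubule and actin cytoskeleton, 6 were led and 9 balanced, with a median leading share of 62.5% (46 and 23.5% of all members were led and balanced). Mapt, the gene of the axonal protein tau, was at 92.2 FPKM (78.9 to 105) in its transcript of 5210 nt, and the transcript longer by 174 nt was listed at 0. Kif1b, a kinesin with 2 alternative tails, was at 71.1 FPKM (58.3 to 83.9) for its long transcript and 10.4 FPKM (4.46 to 16.3) for the one shorter by 3033 nt. Both genes were thus led by 1 of their 2 listed transcripts, Kif1b with 87.3%. The value of 0 for the longer Mapt transcript gives no limit on its level. Dcx, which encodes the doublecortin of migrating neurons, was the opposite case, with 4 transcripts at 69.7, 47.5, 32.4 and 22.96 FPKM, the leading one at 40.4%. These transcripts differ from the leading one by only 78 to 96 nt and the leading one was not resolved, its interval being 42.9 to 96.5 FPKM.

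Dclk1, a doublecortin-like kinase, was divided between a transcript of 7803 nt at 23.9 FPKM (19.96 to 27.8) and one of 6026 nt at 14.3 FPKM (10.9 to 17.8), and 3 of its 7 transcripts were listed at 0. Ank3 encodes ankyrin G of the axon initial segment, and 2 of its 9 transcripts held 64.8 and 32.9%, the second being longer by 588 nt. Add1, a cap of actin filaments, was close to equal shares, at 23.3, 20.2 and 19.9 FPKM for 3 transcripts. Dbn1, the actin-binding drebrin, was at 153 FPKM (124 to 182) for a transcript of 2906 nt and at 60.4 FPKM (43.0 to 77.9) for one longer by 3 nt. The transcript longer by 138 nt, with a further exon known from adult brain as drebrin A, was at 1.99 FPKM with a lower bound of 0. Tpm1, a tropomyosin with several internal exon pairs, was balanced with a leading share of 39.5% and had 5 of 10 transcripts at 1.79 FPKM or more.

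Of 14 genes of adhesion, guidance and extracellular signals, 1 was led and 5 were balanced. App, the amyloid precursor gene, was the led gene, at 83.9 FPKM (72.4 to 95.3) and 87.5% for its transcript of 3132 nt, which lacks 168 nt found in the next transcript, at 7.97 FPKM (4.47 to 11.5). Its relative Aplp2 was at 25.3 FPKM (21.4 to 29.1) for the transcript with a matched coding exon of 168 nt, which held 65.8% of the gene. A transcript shorter by exactly 168 nt was at 1.85 FPKM (0.717 to 2.99). Another transcript of Aplp2, of 3526 nt, was between them at 11.3 FPKM (8.61 to 13.98) and held 29.4%. It is 132 nt shorter than the leading one, and its length does not show whether it holds the 168-nt exon. The share of Aplp2 without this exon is therefore not known here. Ncam1, the neural cell adhesion molecule, was at 28.8 FPKM for the transcript without the 801-nt exon of the long cytoplasmic tail, and at 9.49 FPKM for the transcript with it. The third transcript, of 4885 nt, was at 1.19 FPKM, and the intervals of all 3 were apart.

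Vcan encodes versican, a matrix proteoglycan whose central exons of 2880 and 5217 nt carry the chondroitin sulphate chains. The transcript with both exons was at 19.7 FPKM (16.8 to 22.5), the one without the 2880-nt exon at 6.04 FPKM (4.21 to 7.86) and the one without the 5217-nt exon at 0.328 FPKM with a lower bound of 0. Nlgn1, which encodes a synaptic neuroligin, was low and near balance, at 4.24 FPKM (3.23 to 5.25) and 3.88 FPKM (2.78 to 4.97). Ctnnd1, the p120 catenin that binds cadherins, had 2 leading transcripts at 14.5 and 14.3 FPKM among 5.

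Among 17 receptors, channels and transporters 5 were led and 5 balanced. The AMPA receptor genes differed. Gria1 was at 12.4 FPKM (10.7 to 14.1) and 0.710 FPKM (0.268 to 1.15) for 2 transcripts of equal length, so that the leading one held 94.6%. Gria2 had a transcript of 3491 nt at 65.7 FPKM (47.0 to 84.5) and 2 of 6841 nt at 42.6 FPKM (32.0 to 53.2) and 25.9 FPKM (17.5 to 34.3). The order in Gria2 turns on the scale: per length the short transcript led with 49.0%, whereas by FPKM times length, which is closer to a share of fragments, a long transcript led with 41.7%. Fgfr1, the receptor of fibroblast growth factors in radial glia, was at 17.01 FPKM (14.2 to 19.8) and 11.8 FPKM (9.47 to 14.2) for transcripts that differ by 6 nt, and its transcript without the 267-nt exon of the first immunoglobulin loop was listed at 0. Fgfr3 was at 19.99 FPKM (16.996 to 22.99) for the leading of 4 transcripts, which held 71.0%.

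The neurotrophin receptors Ntrk2 and Ntrk3, which occur as kinase and truncated forms, both had their pairs resolved. Ntrk2 was at 7.82 FPKM (6.404 to 9.24) for a transcript of 4605 nt and 2.65 FPKM (1.98 to 3.32) for one of 7003 nt. Ntrk3 was at 16.8 FPKM (14.1 to 19.4) and 10.3 FPKM (7.92 to 12.8). The calcium pump Atp2b2 had its whole level of 7.47 FPKM in 1 of 2 transcripts.

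**Figure D5:**
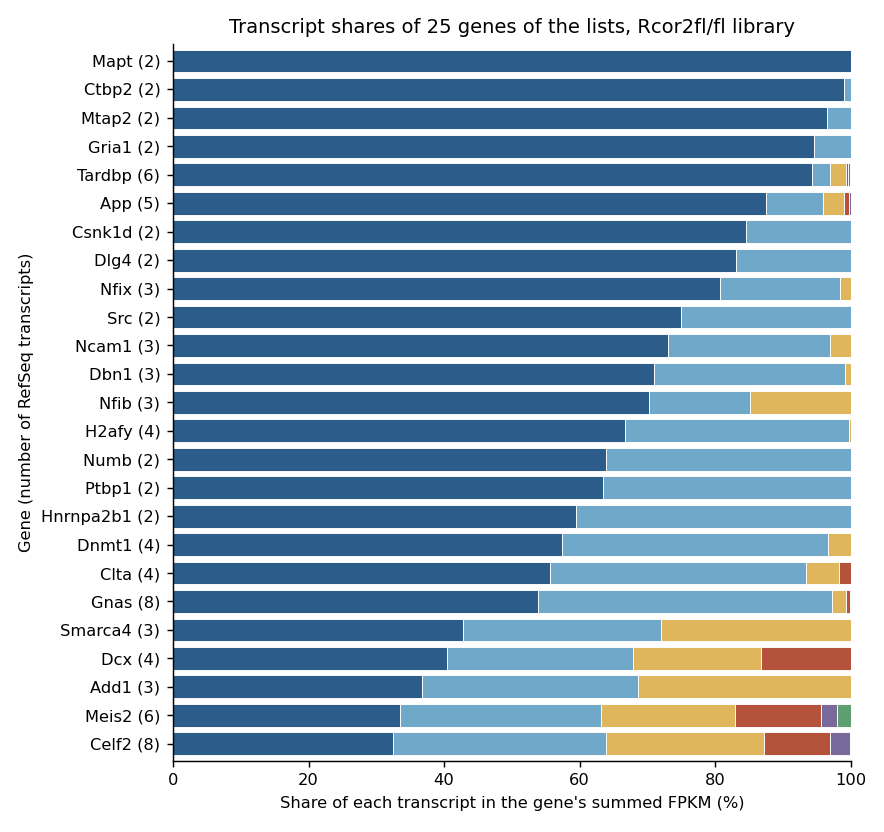
Share of each transcript in the summed FPKM of its gene (x axis, %) for 25 genes of the lists, with the number of RefSeq transcripts in brackets and colours by rank within the gene, dark blue being the leading transcript. The genes run from Mapt, with 1 transcript at 100%, to Celf2, whose leading transcript held 32.4%.

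Of 19 genes of signalling and trafficking 5 were led and 7 balanced. Camk2g, a calcium- and calmodulin-dependent kinase, was at 17.02 FPKM (14.2 to 19.8) without the 69-nt exon of its variable linker and at 2.59 FPKM (1.04 to 4.14) with it. Csnk1d and Dlg4, a casein kinase and the scaffold PSD-95, were led with 84.5 and 83.0%. Snap23, a membrane fusion protein, was at 6.88 FPKM for its leading transcript and 1.45 FPKM for one longer by a matched exon of 33 nt. Gnas, an imprinted locus with several first exons that encodes the stimulatory G protein alpha subunit, divided 365 FPKM mainly between a coding transcript at 196 FPKM (159 to 234) and a transcript listed as non-coding at 158 FPKM (120 to 196). The coding one held 53.9% of the gene and 94.97% of the coding transcripts alone. Gnao1, the G protein alpha subunit of neurons, was at 54.2 and 48.4 FPKM for transcripts of 2948 and 6005 nt, and by FPKM times length the longer led with 64.6%.

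RNA-binding proteins and splicing factors, 28 genes, were led in 5 cases and balanced in 13, with a median leading share of 61.8%. Ptbp1 itself was at 42.9 FPKM (30.8 to 54.99) without and 24.8 FPKM (15.6 to 33.9) with its 78-nt exon, which lies between RNA-binding domains and strengthens the repressor. The 36.6% share of the longer form was not resolved from that of the shorter by the intervals. Hnrnpd, the AU-rich element binding protein AUF1, has 4 transcripts that are the combinations of its 57-nt and 147-nt exons. The transcript with both was at 23.5 FPKM (19.3 to 27.7), without the 147-nt exon 11.7 FPKM (8.72 to 14.7), without the 57-nt exon 6.95 FPKM (4.63 to 9.27), and without both 3.11 FPKM (1.51 to 4.71). All 4 forms of the protein thus had a transcript in the tissue, and the form with both exons held 51.9%.

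Rbfox2, a regulator of neuronal exons, had 2 transcripts at 41.7 FPKM (32.6 to 50.8) and 29.3 FPKM (22.0 to 36.6) that differ by 12 nt, with 4 others at most at 4.60 FPKM. Celf2 was divided over 3 transcripts at 28.1, 27.3 and 20.1 FPKM with overlapping intervals. Elavl2, an Hu protein of early neurons, had a leading share of 71.5%. Hnrnpa2b1, at 545 FPKM the highest of the list, was at 324 FPKM (233 to 414) and 221 FPKM (95.1 to 347) for transcripts of 4085 and 1647 nt. Hnrnpa1 was at 170 FPKM (106 to 234) with and 36.3 FPKM (3.98 to 68.5) without a matched exon of 159 nt. The lower transcript of both genes had a wide interval. Tardbp, the gene of TDP-43, was led most strongly of the list, with 94.2% in 1 of 6 transcripts.

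Transcripts listed as non-coding (NR) accompanied coding ones in 144 of the 1903 genes and held a median of 23.8% of the FPKM there. In 77 genes they held at least 20%, and in 27 the leading transcript was a non-coding one. Genes of the SR family of splicing factors are known to control their own level through exons that introduce a stop codon and expose the transcript to decay. Srsf3 was at 123 FPKM (100 to 146) for its coding transcript and at 33.03 FPKM (19.0 to 47.0) for the non-coding one, which is longer by a matched cassette exon of 456 nt. Srsf7 was at 45.5 FPKM (37.1 to 53.99) for the leading coding transcript and 26.9 FPKM (21.0 to 32.8) for a non-coding one longer by 451 nt. Its leading share was 47.8%, and 66.5% among coding transcripts alone. Srsf9 had a smaller non-coding share, 11.3%. In Clk1, a kinase that phosphorylates SR proteins, the non-coding transcripts held 68.97%, and the leading one of 3088 nt, at 29.8 FPKM (25.4 to 34.2), was above the coding transcript at 15.8 FPKM (10.7 to 20.8).

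Of 27 transcription factors 9 were led and 7 balanced, and the median leading share was 73.7%. The nuclear factor I genes, which promote the switch from neurogenesis to gliogenesis, had leading shares on both sides of the 80% limit. Nfix was at 133 FPKM (111 to 154) and 80.7% for its leading transcript, at 29.1 FPKM (20.4 to 37.8) for a transcript from another start site and at 2.68 FPKM (0 to 6.71) for the one without a matched 123-nt exon. The leading share was 82.1% in Nfia, 74.8% in Nfic and 70.2% in Nfib. Eomes, the Tbr2 factor of intermediate progenitors, was at 69.5 FPKM (60.01 to 79.1) and 11.4 FPKM (7.40 to 15.4) for transcripts that differ by 57 nt. Ctbp2, a co-repressor whose other start site gives the synaptic ribbon protein, was at 33.8 FPKM (29.4 to 38.2) and 0.331 FPKM (0 to 0.727), so that 99.03% came from the leading start site.

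Meis2, a homeodomain factor, was spread over 6 transcripts, the first 4 at 20.2, 17.9, 11.9 and 7.67 FPKM, and its order was not resolved. Tcf3, an E protein that pairs with proneural factors, had 8 transcripts whose lengths lie within 9 nt of the leading one, at 21.0 FPKM (17.1 to 24.98) for the first and 11.7 FPKM (8.72 to 14.6) for the second. Tcf4, the E protein of Pitt-Hopkins syndrome, was at 95.4 FPKM (70.5 to 120) and 59.9 FPKM (40.4 to 79.4) from 2 start sites, with overlapping intervals. Creb1, the cyclic AMP response factor, was at 12.6 FPKM (10.8 to 14.4) without and 3.18 FPKM (2.12 to 4.23) with a matched 42-nt exon. Hmga1, a chromatin-binding protein of progenitors, had 14 transcripts, the most of all genes, of which the leading one held 61.8%.

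Among 20 chromatin regulators 5 were led and 8 balanced. Of the CoREST complex, in which Rcor2 and Lsd1 (Kdm1a) act, Rcor1, Rcor2, Rcor3, Kdm1a, Hdac1 and Hdac2 were each listed with 1 transcript. Its subunits Phf21a (BHC80) and Hmg20b (BRAF35) were members. Phf21a was at 13.4 FPKM (11.2 to 15.5) and 7.87 FPKM (6.21 to 9.52) from different start sites, and Hmg20b at 10.2 FPKM (7.57 to 12.9) and 4.15 FPKM (2.52 to 5.78). The Polycomb genes Ezh2 and Suz12 were led with 90.9 and 86.7%. Smarca4, Smarca2 and Smarcc2, subunits of the BAF remodelling complex, were balanced. Bcl11a and Bcl11b, listed as transcription factors and also found in BAF, had leading shares of 67.1 and 76.0%. Smarca4 was at 41.9, 28.8 and 27.4 FPKM for transcripts within 12 nt of each other, and Smarcc2 at 49.3, 42.6 and 31.2 FPKM. H2afy, the gene of the histone variant macroH2A1, was at 74.9 FPKM (63.5 to 86.3) and 37.1 FPKM (29.1 to 45.2) for transcripts that differ by 3 nt. Dnmt1, the maintenance DNA methyltransferase, also had a pair that differs by 3 nt, at 25.03 FPKM (20.9 to 29.2) and 17.2 FPKM (13.7 to 20.6).

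Outside the lists, the 10 genes with the highest sum ran from Naca at 350 FPKM to Tmsb10, the thymosin beta 10 gene, at 858 FPKM. Of them 8 were led, most of them genes of ribosomal proteins and translation such as Rpl19 (99.6%), Rps24 (97.3%) and Eif4a1 (99.8%). Nnat, the imprinted neuronatin gene of early neurons, was an exception, at 498 FPKM (401 to 594) with and 159 FPKM (102 to 216) without its 81-nt exon, and Ctnnb1 was the other. The most even genes with 2 transcripts and at least 20 FPKM included Mtap7d1 (25.2 and 25.1 FPKM), Tecr (45.3 and 44.5 FPKM), Acly (49.7 and 48.2 FPKM) and Akt2 (18.02 and 17.1 FPKM). Genes with many transcripts included Gpm6b, a membrane proteolipid of neurons and glia, with 2 of 9 transcripts at 55.05 and 51.7 FPKM from different start sites. Islr2, a surface protein of axons, had 3 transcripts at 36.9, 32.7 and 30.4 FPKM from 3 start sites.

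At the limit of the rule, Ric3 (5.01 FPKM), Dlgap1 (5.02 FPKM) and Erlin1 (5.02 FPKM) were the lowest genes inside, and Per1 (4.99 FPKM), Pde1c (4.99 FPKM) and Fam113a (4.98 FPKM) the highest outside. As gene totals, the 1903 genes were compared with the Rcor2cko library on log2(FPKM + 0.1), with 1 library on each side. The median log2 ratio of Rcor2cko over Rcor2fl/fl was -0.04 for the 1903 genes and -0.05 for 6576 genes with 1 transcript at or above the same minimum. Of the 1903 genes 17 (0.893%) were over 1.5-fold higher and 13 (0.683%) over 1.5-fold lower in the Rcor2cko library, against 0.708% and 0.802% of all 8479 genes. The 8479 genes include the 1903. Of the 6576 genes with 1 transcript, 43 (0.654%) were over 1.5-fold higher and 55 (0.836%) over 1.5-fold lower. The percentages of both sets were close to those of all 8479 genes, and no difference between the sets is read from them. Both sets had to reach 5 FPKM in the Rcor2fl/fl library. Genes below that level there and higher in Rcor2cko are therefore left out, and the counts do not describe the whole library.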

How the data were processed

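The authors isolated RNA with RNeasy columns, prepared a stranded mRNA library, mapped reads to mm9 with TopHat at default settings and estimated levels with Cufflinks (TopHat 1.3.3 and Cufflinks 1.2.0 per the submitters' processing notes; the methods of the study name another TopHat version). They deposited FPKM values with 95% FPKM bounds, 1 per RefSeq transcript for Rcor2fl/fl and 1 per gene for Rcor2cko. Cufflinks divides the fragments of a gene among annotated transcripts by likelihood, so that shares depend on the annotation and shift between transcripts that differ by few bases.

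From these values, the share of a transcript was its FPKM over the summed FPKM of its gene. A transcript was resolved when its lower bound lay above the upper bound of every other. No normalization was applied and no test was made. The fragment scale was fitted on 586 genes with 1 transcript and 1 fragment (length offset 194 nt). For the cassette exons, 1898 of 1903 genes were found in GENCODE vM1 by symbol and position; its assembly is mm9, and all positions on its 21 chromosomes lay within their lengths. Exons whose length was not unique among the cassette exons of their gene were left out. Sequences are from that genome. The members and lists were chosen with earlier results of these data known. On list genes any member could be named; of the other members, the 10 with the highest sum, the 10 most even with 2 transcripts and at least 20 FPKM, the 10 with most transcripts, and 5 on each side of the minimum; others are said to be chosen after their values were seen. Items withheld for evaluation are not reported here. The scripts were tested on simulated data with known shares. Python 3.11.15, numpy 2.4.6, pandas 2.3.3 and matplotlib 3.10.9 were used.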

Additional observations from a re-analysis of the deposited data

How the results depend on the processing

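In all, 13 alternatives were run, giving 34 counts, of which 27 stayed within 1.5 times the reported one. A minimum of 20 FPKM left 777 genes, of which 345 were led (44.4%), 190 balanced (24.5%), 392 had 2 or more transcripts of at least 20% (50.5%) and 624 were resolved (80.3%). With fewer genes the counts fell while the percentages stayed close to the reported 46, 23.5, 50 and 77.2%. The definitions set the rest: 521 genes were led at 90%, 750 were balanced under 70%, and 578 had 2 or more transcripts of at least 30%. Leaving out the status requirement, genes with a transcript under 500 nt, genes at separate loci or non-coding transcripts moved no count past 1.5 times, and neither did a minimum of 1 FPKM. With shares of FPKM times length, 55 of 1903 genes had another leading transcript. Of 72 genes checked singly 68 kept the leading transcript, with a share that moved by less than its 95% FPKM interval allows, under that scale, the share moved further in Clk1 (70.8%) and Hnrnpa2b1 (78.4%), and the leading transcript changed in Gria2 (41.7%) and Gnao1 (64.6%). Without non-coding transcripts the leading share rose to 94.97% in Gnas and 66.5% in Srsf7. No paired analysis was possible because each genotype has 1 library. Depth limits low values: 3 fragments correspond to 0.0882 FPKM at a length of 2000 nt, and to a higher FPKM in shorter transcripts. The order of transcripts with overlapping intervals is not settled by this library.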

Other observations

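Of the 144 genes with coding and non-coding transcripts, 27 had a non-coding one as the leading transcript. The 5 of these with the highest sum were Zfp57, Clk1, Wac, Taf1d and Vash2. The leading transcript was at 69.4 FPKM (59.7 to 79.1) and 73.0% of the gene in Zfp57, and at 18.2 FPKM (15.4 to 21.1) and 63.2% in Wac. It was at 14.8 FPKM and 54.2% in Taf1d, and at 18.9 FPKM and 89.5% in Vash2. A further 19 members have non-coding transcripts only and were not ranked. Zfp57 encodes a zinc finger protein that maintains imprints. In Rbmx, an RNA-binding protein of the X chromosome, the leading coding transcript was at 63.9 FPKM (52.4 to 75.4) and the non-coding one, shorter by 61 nt, at 53.9 FPKM (43.2 to 64.6). In Nnt, the nicotinamide nucleotide transhydrogenase, the non-coding transcript held 97.9% of its FPKM. In Atf5, a stress-response transcription factor, a non-coding transcript held 91.0% of 12.9 FPKM. These genes were chosen after their values were seen.

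In 4 members the rows lie at separate places of the genome, so that their shares do not describe isoforms. The alpha-globin gene Hba-a2 was listed as 2 copies at 53.2 and 48.5 FPKM and Hba-a1 as 2 copies at 41.2 and 6.51 FPKM, near-identical copies whose values are uncertain. The other 2 are Atxn7l1 and 6820431F20Rik. Lhx6, a marker of interneurons that was at 10.4 FPKM in sum, was balanced, with a leading share of 48.7%, and its 4 transcripts use 2 start sites.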
